A study of Mus musculus with 2 samples.

Results

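Naive-like CD4 T cells were taken here as 213 of the 10720 cells in the deposited matrix, 199 from the tumours of mice given DFMO and 14 from the tumours of mice given water. A cell was a member when its unique molecular identifier (UMI) counts met 8 conditions. It had at least 1 UMI of the CD3 chain genes Cd3d, Cd3e and Cd3g summed, at least 1 UMI of Cd4, and none of Cd8a, Cd8b1, Foxp3 or Cd79a. It had at most 2 UMIs of the myeloid gene Lyz2, at least 1 UMI of Lef1, Tcf7 and Dapl1 summed, and none of the effector genes Cxcr6, Pdcd1, Ifng and Tnfrsf4. The levels of these genes therefore chose the members and are given below as descriptions only.

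The study used MC38 cells, a mouse colon carcinoma line, grown on the back of C57BL/6 mice. From 7 days after injection the mice were gavaged for 14 days with DFMO (difluoromethylornithine), an inhibitor of ornithine decarboxylase, or with water. Tumours of 4 mice per group were pooled, digested and enriched for immune cells over Ficoll, and each pool gave 1 library made with 10x Chromium 5′ chemistry. No comparison below therefore has a replicate check: intervals are 95% intervals that cover counting error alone, and a difference between the libraries is a difference between 1 pool and 1 pool. The title of the study names the urea cycle under DFMO as its question.

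Naive CD4 T cells are helper T cell precursors that have left the thymus and have not yet met their antigen. They recirculate between blood and lymphoid organs by way of the chemokine receptor Ccr7 and the sphingosine phosphate receptor S1pr1, and they survive on interleukin 7 through Il7r. The transcription factors Lef1, Tcf7, Klf2 and Foxo1 hold this resting, recirculating state, and activation by antigen lowers their transcripts while effector genes are switched on.

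The libraries differed in depth. The DFMO library held 23588037 UMIs in 4472 cells with a median of 2232 UMIs per cell, and the water library held 59748244 UMIs in 6248 cells with a median of 6475. The members were shallower and closer to each other, with a median of 1835 UMIs (810 to 28428) in DFMO members and 1382 UMIs (996 to 16307) in water members. No mitochondrial and no ribosomal protein gene was among the 17775 genes of the matrix. Between the libraries 37 cell barcodes were shared, and 3 members carried one of them.

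Naive-like CD4 T cells made up 4.45% (3.86 to 5.10%) of the cells in the DFMO library and 0.224% (0.123 to 0.376%) in the water library. Of T cells, which have a CD3 UMI, no Cd79a and at most 2 Lyz2 UMIs, they were 11.2% (9.75 to 12.7%, 199 of 1781) in DFMO tumours and 1.06% (0.581 to 1.77%, 14 of 1319) in water tumours. Of conventional CD4 T cells, which are T cells with Cd4 but no CD8 or Foxp3 UMIs, they were 73.4% (67.8 to 78.6%, 199 of 271) in DFMO tumours and 20.9% (11.9 to 32.6%, 14 of 67) in water tumours. None of these 3 pairs of intervals overlapped. Intervals are exact binomial (Clopper-Pearson).

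The other large class of conventional CD4 T cells, the effector-like cells with at least 1 UMI of Cxcr6, Pdcd1, Ifng or Tnfrsf4, is set beside them here. Of T cells it was 3.31% (2.53 to 4.25%, 59 cells) in DFMO tumours and 3.79% (2.83 to 4.97%, 50 cells) in water tumours, and these intervals overlap. Naive-like CD8 T cells, chosen by the same naive and effector genes with CD8 in place of CD4, were 20.2% (18.4 to 22.2%, 360 cells) of T cells in the DFMO library and 4.25% (3.22 to 5.48%, 56 cells) in the water library. Naive-like cells of both lineages therefore held larger shares of T cells in the DFMO library.

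A deeper cell can gain a UMI of an effector gene and lose membership, and the T cells of the water library were deeper, with a median of 2987 UMIs against 2174 in the DFMO library. After every cell was thinned to 1000 UMIs and the conditions were applied anew, naive-like CD4 T cells were 6.85% (5.68 to 8.16%, 115 of 1680) of T cells in the DFMO library and 0.767% (0.351 to 1.45%, 9 of 1173) in the water library. Of conventional CD4 T cells they were then 71.4% (115 of 161) in the DFMO library and 23.7% (9 of 38) in the water library. Thinning left out 46 DFMO and 61 water T cells that had under 1000 UMIs.

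**Figure D1:**
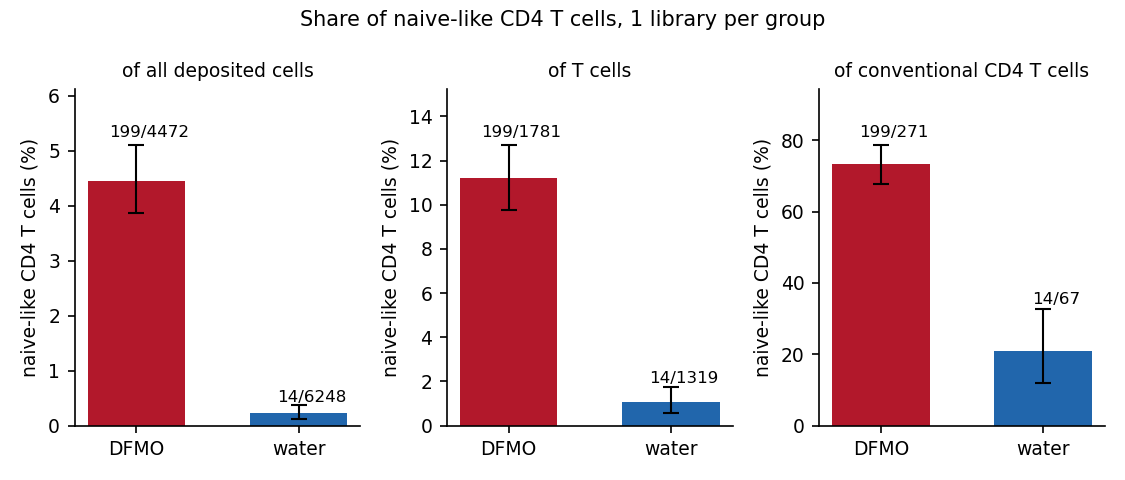
Share of naive-like CD4 T cells (percent, vertical axis) of all cells, of T cells and of conventional CD4 T cells, in the DFMO library and the water library (1 library each); bars are exact 95% binomial intervals. The share is higher in the DFMO library for each denominator, for example 11.2% against 1.06% of T cells.

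The conditions were loose at the level of single cells, because most genes in them were seen as 1 or a few UMIs. Cd4 stood at exactly 1 UMI in 140 of the 199 DFMO members (70.4%) and in 12 of the 14 water members (85.7%). A further 343 cells of the DFMO library (median 1724 UMIs) and 54 of the water library (median 1852 UMIs) met every condition but Cd4, and how many of them were CD4 T cells with no Cd4 UMI was not determined. The CD3 sum was firmer, with a median of 11 UMIs in DFMO members and 8 in water members. Lef1, Tcf7 and Dapl1 together had a median of 4 UMIs in DFMO members and 2 in water members. The number of cells that missed only the effector condition was 30 in the DFMO library and 12 in the water library.

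At the edge of the naive condition in the DFMO library stood 26 members with exactly 1 UMI of Lef1, Tcf7 and Dapl1 and, just outside, 13 cells with none. Levels here and below are counts per 1000000 UMIs (CPM), with UMIs summed over a class. Il7r was 671 CPM in the 26 members and 662 CPM in the 13 outside cells, against 465 CPM in the 173 members with more UMIs of these genes. Ccr7 was 694 CPM just inside and 515 CPM just outside, and S1pr1 was 416 CPM just inside and 184 CPM just outside. S100a4, a calcium-binding protein of activated and memory T cells, was 23.1 CPM (1 UMI) just inside and 294 CPM (8 UMIs) just outside.

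Of the members, 4 had 3 or more UMIs of a list of fibroblast and tumour cell markers (Col1a1, Col3a1, Sparc, Postn, Krt8, Krt18, Epcam), all from Sparc and Col3a1. They were 1 DFMO cell of 28428 UMIs, which held 6.38% of the UMIs of DFMO members, and 3 water cells of 16307, 4068 and 1762 UMIs, which together held 59.1% of the UMIs of water members. Ptprc, the CD45 gene of all white blood cells, had no UMI in any of the 4, while 130 of the 199 DFMO members (65.3%) and 5 of the 14 water members had one. The deepest water cell had 1 UMI over the CD3 genes, and the other 2 water cells had 7 and 10. The summed level of these markers was 107.7 CPM (79.4 to 142.8) in DFMO members, with 4 of the 7 markers at 0, and 1122 CPM (808 to 1516) in water members, with 5 of the 7 at 0. Without these cells 198 DFMO members with 417164 UMIs and 11 water members with 15312 UMIs remained. Levels of single genes that these cells move are given with and without them. Detection rates, marker lists and receptor segments of water members are with all 14 unless stated. The part of these cells in the marker lists and receptor segments was not tested.

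**Figure D2:**
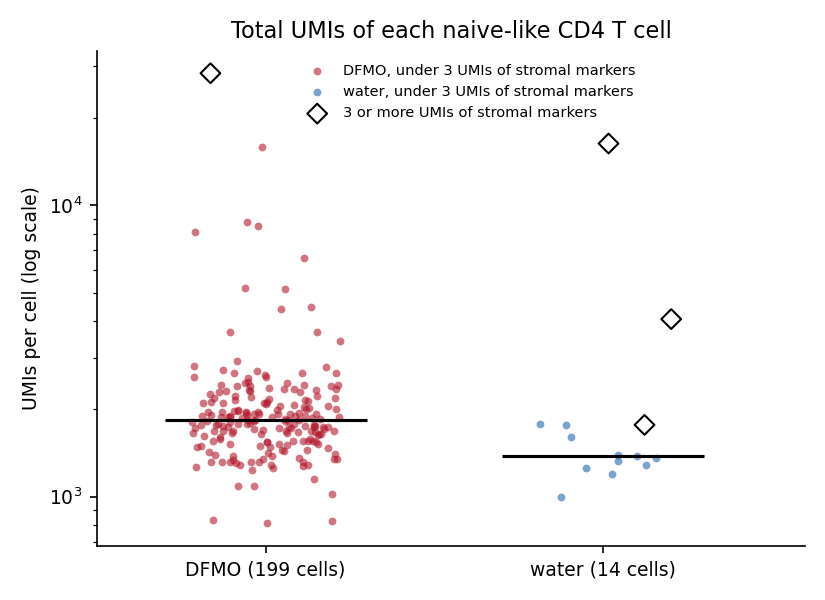
Total UMIs (vertical axis, log scale) of each naive-like CD4 T cell, 199 in the DFMO library and 14 in the water library; horizontal lines are medians (1835 and 1382 UMIs) and open diamonds are the 4 members with 3 or more UMIs of fibroblast and tumour markers. In the water library these 3 cells are among the deepest members.

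Some genes outside the conditions are set beside other classes of the DFMO library here, and Cd40lg among them was chosen after its values were seen. Il7r, the interleukin 7 receptor, was detected in 109 of 199 members (54.8%) against 0.398% of the 1507 B cells of the same library, whose median depth was 1776 UMIs. S1pr1 was detected in 43.2% of members and in 24.5% of B cells, a cell type that also recirculates. In naive-like CD8 T cells Il7r was detected in 59.2% and S1pr1 in 44.2%. In the deeper effector-like CD4 T cells (median 3010 UMIs) these were 42.4% and 28.8%. Il7r and S1pr1 thus did not set the members apart from naive-like CD8 T cells. Cd44, an adhesion receptor raised on activated and memory T cells, was detected in 7.04% of members. It was detected in 8.61% of naive-like CD8 T cells, 5.97% of B cells and 35.6% of effector-like CD4 T cells. Nkg7, a granule protein gene of cytotoxic cells, was detected in 2.51% of members (5 cells) and in 80.3% of naive-like CD8 T cells. Cd40lg, the helper T cell ligand for CD40 on B cells, was 170.6 CPM in members and 10.8 CPM in naive-like CD8 T cells of the DFMO library (log2 ratio 3.98, 3.03 to 5.10). In the water library Il7r was detected in 8 of 14 members (57.1%) and S1pr1 in 4 of 14 (28.6%). Without the fibroblast and tumour marker cells these were 5 of 11 (45.5%) for Il7r and 3 of 11 (27.3%) for S1pr1.

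Markers of most other cell types were low in DFMO members, apart from Ighm and from Hbb-bs, which came from 1 cell. The summed marker level was 219.9 CPM for NK cells (6 of 6 markers detected) and 103.2 CPM for monocytes and macrophages (5 detected). It was 11.2 CPM for dendritic cells (4 of 6 at 0), 0 for plasma cells and 0 for platelets, where 0 UMIs allow up to 6.73 CPM. The NK cell list was 81.95 CPM in naive-like CD8, 218.1 CPM in effector-like CD4 and 197.6 CPM in B cells of that library. In water members NK cell and dendritic cell markers were at 0, which allows up to 80.1 CPM, and macrophage markers were at 26.7 CPM (1 UMI). Regulatory T cell markers other than Foxp3 were at 184 CPM in DFMO members and 133.5 CPM in water members. The B cell list stood at 504.9 CPM (441.1 to 575.4) in DFMO members and 240.3 CPM (109.9 to 456.2) in water members, mostly from Ighm, the immunoglobulin M heavy chain gene. Ighm was detected in 111 of 199 DFMO members (55.8%) at 435 CPM, in naive-like CD8 T cells of that library at 387 CPM and in its B cells at 863 CPM. The origin of the Ighm UMIs was not tested.

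The recirculation and survival genes were present in the DFMO members but were not particular to them. Klf2 was detected in 84.4% of DFMO members, 90.6% of naive-like CD8 T cells and 93.8% of B cells of that library. Klf2, the transcription factor that turns on S1pr1, was 1838 CPM (1714 to 1968) in DFMO members. Water members had 2083 CPM (1646 to 2600) of Klf2. Without the fibroblast and tumour marker cells the levels were 1946 CPM (1815 to 2085) in DFMO members and 3918 CPM (2990 to 5044, 60 UMIs) in water members, a log2 ratio of -1.01 (-1.39 to -0.61). Ccr7 was 738 CPM (661 to 823) in DFMO members and 534 CPM (326 to 825, 20 UMIs) in water members, and without those cells 786 CPM in DFMO members and 1110 CPM (17 UMIs) in water members (log2 ratio -0.50, -1.20 to 0.30). S1pr1 was 281 CPM (234 to 334) in DFMO members and 134 CPM (43.4 to 312, 5 UMIs) in water members, and without those cells 299.6 CPM in DFMO members and 261 CPM (4 UMIs) in water members (0.20, -1.19 to 2.10). Il7r was 485 CPM (422 to 554) in DFMO members and 374 CPM (204 to 627, 14 UMIs) in water members, and without those cells 518 CPM in DFMO members and 588 CPM (9 UMIs) in water members (-0.18, -1.13 to 0.97). The direction of Ccr7 and Il7r thus turned when those cells were left out. The intervals of Klf2, Ccr7, Il7r and S1pr1 overlap between the libraries when all members are counted.

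The genes that chose the members read as follows. Cd4 was 610 CPM in DFMO members and 454 CPM in water members, and without the fibroblast and tumour marker cells 649.6 CPM in DFMO members and 914 CPM (14 UMIs) in water members. Lef1 was 895 CPM in DFMO members and 294 CPM in water members, Tcf7 604 CPM in DFMO members and 507 CPM in water members, and Dapl1 572 CPM in DFMO members and 267 CPM in water members. Without the same cells Lef1 was 952 CPM in DFMO members and 718 CPM in water members, Tcf7 645 CPM in DFMO members and 784 CPM in water members, and Dapl1 611 CPM in DFMO members and 653 CPM in water members, the water levels from 10 to 12 UMIs each.

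Against effector-like CD4 T cells of the same library, DFMO members were higher in naive T cell genes and lower in effector, regulatory, memory and checkpoint genes. The conditions that chose the members used this contrast, so the values describe the separation and no support is read from them. Of 3901 genes with at least 30 UMIs over both classes, 260 (6.66%) were at least 2-fold higher in members and 246 (6.31%) were at least 2-fold lower, with a median log2 ratio of 0.05. Of the 25 naive genes counted (a list of 30, less the 3 in the conditions), 18 were at least 2-fold higher, none was 2-fold lower, all 25 had positive ratios and their median was 1.31.

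Igfbp4, an insulin-like growth factor binding protein gene, was 1154 CPM in DFMO members and 201 CPM in effector-like cells (log2 ratio 2.52, 2.09 to 2.98), and without cells with fibroblast or tumour markers 1232 CPM in members and 118 CPM in effector-like cells (3.38, 2.79 to 4.04). Satb1, a chromatin organiser of T cell development, was 442 CPM in members and 92.3 CPM in effector-like cells (2.26, 1.62 to 2.97). Both genes were over 4-fold higher in the members. Actn1, an actin cross-linker, was 451 CPM in members and 101 CPM in effector-like cells (2.16, 1.55 to 2.84). Foxo1, the factor that drives Klf2 and Il7r, was 267 CPM in members and 62.9 CPM in effector-like cells (2.09, 1.31 to 2.97). Il7r differed less, at 485 CPM in members and 273 CPM in effector-like cells (0.83, 0.42 to 1.25).

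Genes of T cell quiescence were also higher in members. Of the 20 counted, 10 were at least 2-fold higher and none was 2-fold lower, with a median log2 ratio of 1.01. Pik3ip1, a brake on PI3 kinase, was 154.9 CPM in members and 20.97 CPM in effector-like cells (2.88, 1.59 to 4.55). Tsc22d3, the glucocorticoid-induced leucine zipper gene, was 435 CPM in members and 138.4 CPM in effector-like cells (1.65, 1.12 to 2.23). Txnip, a thioredoxin inhibitor, was 491 CPM in members and 201 CPM in effector-like cells (1.29, 0.83 to 1.77).

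**Figure D3:**
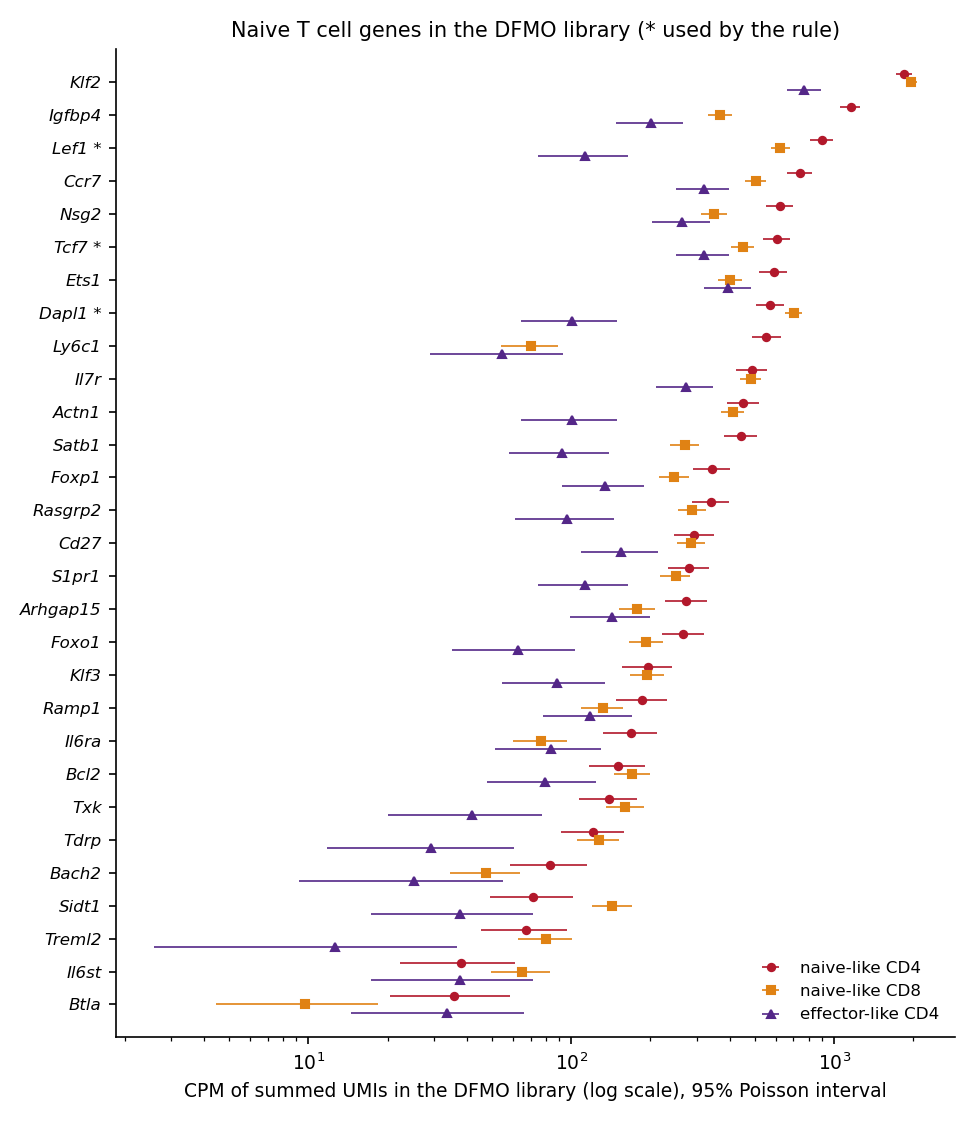
Level of naive T cell genes (CPM of summed UMIs, log scale, horizontal axis) in naive-like CD4, naive-like CD8 and effector-like CD4 T cells of the DFMO library, with 95% Poisson intervals; asterisks mark genes that chose the members. Most genes stand together in both naive-like classes and lower in effector-like cells, while Ly6c1 and Igfbp4 are higher in naive-like CD4 than in naive-like CD8 T cells.

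Effector genes were low in DFMO members. Of 16 helper effector genes counted, 13 were at least 2-fold lower in members and none was 2-fold higher (median log2 ratio -2.21). Ccl4, a chemokine of activated T cells, had 4 UMIs in all members (8.98 CPM), against 1124 CPM in effector-like cells (log2 ratio -6.97, -8.85 to -5.59). Gzmb, the cytotoxic protease granzyme B, also had 4 UMIs in members (8.98 CPM), against 507 CPM in effector-like cells (-5.82, -7.72 to -4.43). All 10 regulatory T cell genes counted were at least 2-fold lower in members (median -2.90). Ctla4, the inhibitory receptor, was 49.4 CPM in members and 411 CPM in effector-like cells (-3.06, -3.80 to -2.38). Of 22 memory and migration genes counted, 17 were at least 2-fold lower in members (median -1.51), and S100a4 was 11.2 CPM in members and 478 CPM in effector-like cells (-5.41, -7.06 to -4.15), or -4.76 (-6.43 to -3.46) without cells with fibroblast or tumour markers. Of 11 checkpoint genes, 7 were at least 2-fold lower (median -1.52).

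Metabolic and housekeeping groups differed less. Of 15 glycolysis genes, 5 were at least 2-fold lower and 1 was 2-fold higher in members (median -0.83). Gapdh, the glycolytic dehydrogenase, was 2159 CPM in members and 4865 CPM in effector-like cells (-1.17, -1.30 to -1.05). None of 34 respiratory chain genes was 2-fold different (median -0.22), and of 27 MYC and ribosome biogenesis genes 2 were 2-fold higher and none was 2-fold lower (median 0.12). Of 45 interferon response genes, 10 were at least 2-fold lower and 1 was 2-fold higher in members (median -0.30). Ifi27l2a, an interferon-induced gene, was 2092 CPM in members and 7247 CPM in effector-like cells (-1.79, -1.91 to -1.68).

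Set beside naive-like CD8 T cells of the DFMO library, the CD4 members were close to them across most genes and far apart in a few. Of 5974 genes, 176 (2.95%) were at least 2-fold higher in the CD4 members and 205 (3.43%) were at least 2-fold lower, with a median log2 ratio of 0.02. Higher genes were 46.2% of these calls, and 34.9% after scaling by trimmed means of M values (TMM). CD4 and CD8 UMIs chose both classes, so nothing is read from these counts. Of 26 naive genes, 3 were at least 2-fold higher in CD4 members (Ly6c1, Igfbp4 and Il6ra) and none was 2-fold lower (median 0.20).

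A pair of neighbouring genes differed in opposite directions between both naive-like classes. Ly6c1 and Ly6c2 encode Ly6C, a surface protein of memory and some naive T cells and of monocytes, and lie on the same strand of chromosome 15, at chr15:75044018-75048830 and chr15:75108158-75111970 (mm10, minus strand). Their promoters are shown to set the pair side by side. Each line holds 250 bases before and 50 bases after the annotated start, from RefSeq on GRCm38.p6, minus strand, at chr15:75048788-75049087 for Ly6c1 and chr15:75111922-75112221 for Ly6c2. Capitals mark runs of at least 12 bases that are identical in the alignment of both.
Ly6c1: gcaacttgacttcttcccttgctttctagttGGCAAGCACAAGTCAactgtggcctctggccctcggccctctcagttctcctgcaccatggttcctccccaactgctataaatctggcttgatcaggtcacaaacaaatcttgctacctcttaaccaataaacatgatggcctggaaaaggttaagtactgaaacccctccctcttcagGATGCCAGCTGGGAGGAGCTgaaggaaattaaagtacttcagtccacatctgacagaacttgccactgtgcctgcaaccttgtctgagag
Ly6c2: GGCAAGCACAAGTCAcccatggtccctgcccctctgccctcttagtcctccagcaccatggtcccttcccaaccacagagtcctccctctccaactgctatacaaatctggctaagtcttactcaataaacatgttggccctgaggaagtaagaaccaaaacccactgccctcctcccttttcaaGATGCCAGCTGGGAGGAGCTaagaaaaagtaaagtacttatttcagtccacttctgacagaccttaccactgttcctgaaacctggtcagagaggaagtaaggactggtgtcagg
Of 266 aligned bases, 208 (78.2%) were identical, and 35 bases of each promoter fell in the marked runs.

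Ly6c1 was 552 CPM (485 to 626, 246 UMIs) in DFMO CD4 members and 70.1 CPM (54.1 to 89.3, 65 UMIs) in naive-like CD8 T cells of the same library (log2 ratio 2.98, 2.58 to 3.39). Without cells with fibroblast or tumour markers it was 590 CPM in CD4 members and 40.2 CPM in CD8 cells (3.87, 3.35 to 4.44). Ly6c2 ran the other way, with 7 UMIs (15.7 CPM) in CD4 members and 1437 UMIs (1550 CPM) in CD8 cells (log2 ratio -6.62, -7.94 to -5.58).

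In the water library Ly6c1 was 614 CPM (23 UMIs) in CD4 members, and 1110 CPM (17 UMIs) in the 11 without those markers, against 1 UMI in naive-like CD8 T cells without them (8.42 CPM). Ly6c2 had no UMI in water CD4 members and 377 UMIs in water naive-like CD8 T cells without those markers, at least 16.2-fold lower in the CD4 members when 3 UMIs are set for the zero. The contrast of both genes thus ran the same way in each library. Of the 31-base words in Ly6c1 transcripts, 33% also occur in Ly6c2 transcripts, and of its 90-base words 11.3% do. For Ly6c2 the shared parts were 21.4% and 7.27%. Reads that lie within shared stretches cannot be told apart, so both levels are uncertain to that extent.

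Some genes that were higher in CD4 than in CD8 naive-like cells of the DFMO library rested largely on 1 cell, such as Phlda1, with 66.7% of its UMIs in 1 CD4 member. Of Igfbp4, Izumo1r, Tesc and Selenop, no CD4 member held more than 8.65% of the UMIs. Igfbp4 was 1154 CPM in CD4 members and 368 CPM in CD8 cells (log2 ratio 1.65, 1.45 to 1.85). Izumo1r, the folate receptor 4 gene known from regulatory and anergic CD4 T cells, was 233 CPM in CD4 members and 60.4 CPM in CD8 cells (1.95, 1.47 to 2.45), and 491 CPM in effector-like CD4 T cells. Cd5, an inhibitor of T cell receptor signalling, was 444 CPM in CD4 members and 199.5 CPM in CD8 cells (1.16, 0.86 to 1.45). Tesc, a calcium-binding protein gene, was 202 CPM in CD4 members and 63.6 CPM in CD8 cells (1.67, 1.18 to 2.17). Selenop, a selenium transport protein, was 521 CPM in CD4 members and 169 CPM in CD8 cells (1.62, 1.32 to 1.92).

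On the lower side, Nkg7 was 40.4 CPM in CD4 members, with 14 of its 18 UMIs in 1 cell, and 1186 CPM in CD8 cells (log2 ratio -4.88, -5.64 to -4.21). Plac8 was 11.2 CPM in CD4 members and 269 CPM in CD8 cells (-4.58, -6.22 to -3.34). Ctsw, a cysteine protease of cytotoxic lymphocytes, was 127.9 CPM in CD4 members and 671 CPM in CD8 cells (-2.39, -2.808 to -1.998). Actn2, an actin cross-linker best known from muscle, was 11.2 CPM in CD4 members and 146 CPM in CD8 cells (-3.70, -5.34 to -2.44). The highest ratios, those of Hbb-bt, Hbb-bs and Gzmc, came from single cells and are described below.

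**Figure D4:**
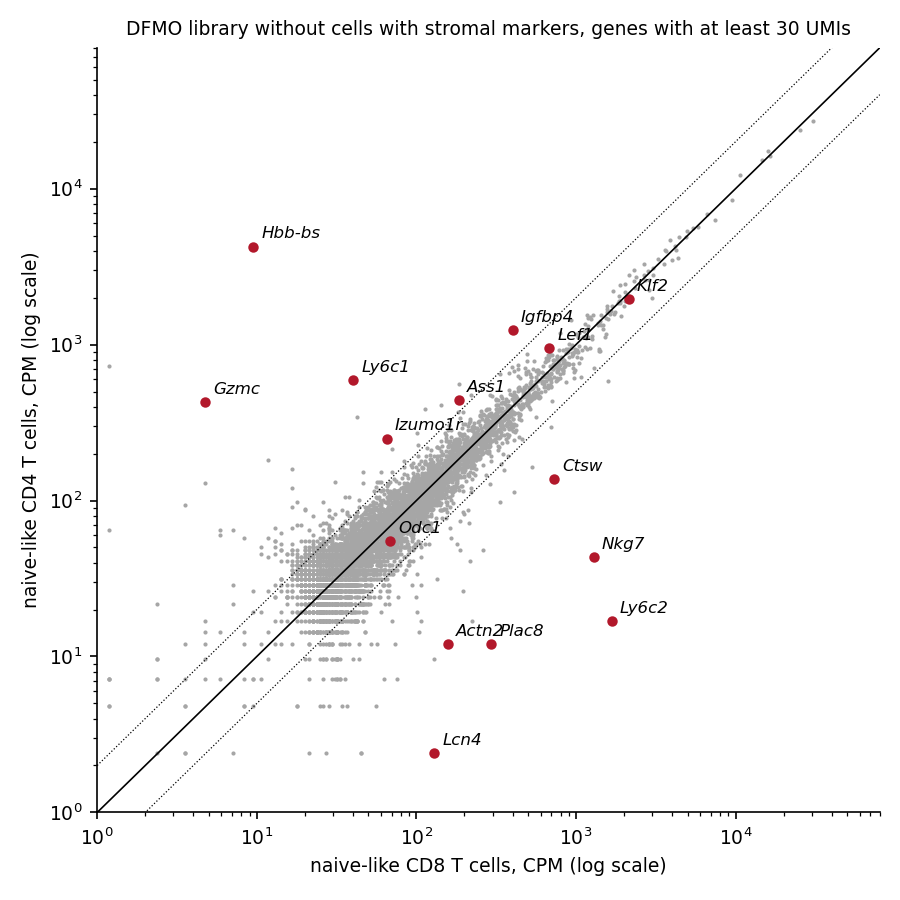
CPM of summed UMIs (log scales) in naive-like CD4 T cells (vertical axis) and naive-like CD8 T cells (horizontal axis) of the DFMO library, one point per gene with UMIs in both classes and at least 30 over both, without cells with fibroblast or tumour markers; the solid line is equality and dotted lines are 2-fold. Most genes lie inside the dotted lines, with Ly6c1 above and Ly6c2 and Nkg7 below.

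Some groups of genes had small differences between both naive-like classes. Of 34 respiratory chain genes, 33 were lower in the CD4 members and none by 2-fold (median log2 ratio -0.18). Of 29 MYC and ribosome biogenesis genes, 24 were lower, 1 of them by 2-fold (median -0.35), and Npm1, the nucleolar protein nucleophosmin, was 2217 CPM in CD4 members and 2914 CPM in CD8 cells (-0.39, -0.50 to -0.29). Quiescence genes had a median of 0.45 over 21 genes, of which 2 were at least 2-fold higher. Interferon response genes had a median of 0.01 over 50 genes, with 1 at least 2-fold higher and 6 lower. Over all genes the median was 0.02, and TMM scaling moved it to -0.04. The share of lower genes over all genes is not given here, nor are these counts without cells with fibroblast or tumour markers. No shift of a group is therefore read from these counts and medians.

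Among genes of arginine and polyamine metabolism, Ass1 was detected in many CD4 members. Ass1, argininosuccinate synthase, which makes the precursor of arginine, was 411 CPM (353 to 475, 183 UMIs) in DFMO members and was detected in 96 of 199 cells (48.2%). In naive-like CD8 T cells of that library it was 170 CPM (145 to 199; log2 ratio of CD4 to CD8 1.27, 0.95 to 1.59), detected in 29.2% of cells. In effector-like CD4 T cells it was 340 CPM (270 to 422), in regulatory T cells 740 CPM (636 to 857) and in B cells 38.7 CPM. Ass1 was therefore present in each CD4 class of the DFMO library at a higher level than in its naive-like CD8 T cells and B cells. After thinning to 1000 UMIs, Ass1 was detected in 31.1% of naive-like CD4, 31.03% of effector-like CD4, 16.7% of naive-like CD8 and 3.06% of B cells of the DFMO library. In the water library it was detected in 4 of 14 naive-like CD4 (28.6%) and 16 of 56 naive-like CD8 T cells (28.6%). A contrast between these naive-like classes was thus not seen in the shares of cells there.

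In water members Ass1 had 4 UMIs (107 CPM, 29.1 to 273), and the log2 ratio of DFMO to water members was 1.94 (0.56 to 3.83). Without the fibroblast and tumour marker cells the water members had 3 UMIs and the ratio was 1.16 (-0.41 to 3.45), so the difference was not detectable at that depth. In effector-like CD4 T cells Ass1 was 340 CPM in the DFMO library and 329 CPM in the water library. Asl, which completes arginine synthesis, was 42.6 CPM (19 UMIs) in DFMO members and had no UMI in water members, where 0 UMIs allow up to 80.1 CPM. Arg1, the arginine-cleaving enzyme of macrophages, had 1 UMI in DFMO members and none in water members.

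Odc1, ornithine decarboxylase and the enzyme that DFMO inhibits, was low in members. Its level in DFMO members was 96.5 CPM (69.8 to 130), and 46.5% of its UMIs came from 1 cell, the one with Sparc UMIs. It was detected in 14 of 199 DFMO members (7.04%), against 49.2% of effector-like CD4 T cells at 545 CPM (log2 ratio -2.50, -3.03 to -1.99). Without cells with fibroblast or tumour markers Odc1 was 55.1 CPM in DFMO members and 610 CPM in effector-like cells (-3.47, -4.18 to -2.82). Regulatory T cells of the DFMO library had 720 CPM, naive-like CD8 T cells 79.8 CPM and B cells 105 CPM. Water members had 2 UMIs of Odc1 (53.4 CPM), both in 1 cell with fibroblast or tumour markers. No DFMO to water difference in Odc1 of the members was detectable at this depth (log2 ratio 0.85, -1.09 to 3.94).

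Genes of the later polyamine steps followed. Sat1, which acetylates spermidine and spermine for export or breakdown, was 249 CPM (205 to 300) in DFMO members and 347 CPM (185 to 594) in water members, and 256 CPM in DFMO effector-like cells. Without cells with fibroblast or tumour markers it was 259 CPM in DFMO members and 457 CPM (7 UMIs) in water members. Srm, spermidine synthase, was 114 CPM in DFMO CD4 members and 195 CPM in naive-like CD8 T cells (log2 ratio -0.77, -1.25 to -0.31). Sms, spermine synthase, was 74.1 CPM in CD4 members and 149 CPM in CD8 cells (-1.01, -1.60 to -0.45). Oaz1, the antizyme that sends ornithine decarboxylase to the proteasome, was 1883 CPM in CD4 members and 1905 CPM in CD8 cells. Of 18 polyamine genes counted between CD4 and CD8 naive-like cells, 1 (Sms) was at least 2-fold lower, none was 2-fold higher and the median log2 ratio was -0.03. Of 9 urea cycle and arginine genes, 2 (Ass1 and Asl) were at least 2-fold higher, none was 2-fold lower and the median was -0.12.

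**Figure D5:**
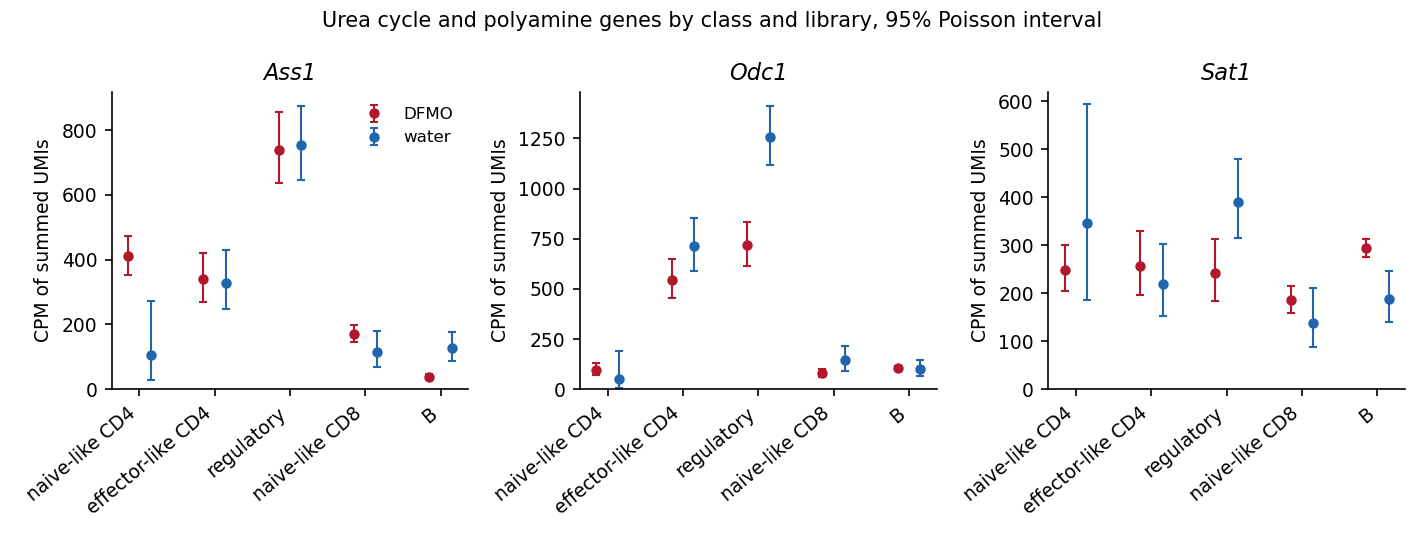
CPM of summed UMIs of Ass1, Odc1 and Sat1 (vertical axes) in 5 cell classes of the DFMO and the water library, with 95% Poisson intervals and all cells of each class counted. Odc1 is low in naive-like CD4 T cells of both libraries and higher in effector-like and regulatory T cells, while Ass1 of DFMO naive-like CD4 T cells lies above naive-like CD8 T cells and B cells.

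The comparison of DFMO with water members rested on 14 water cells and turned on the 3 of them with fibroblast or tumour markers. With all members, 743 of 2919 genes (25.5%) were at least 2-fold higher in DFMO members and 263 (9.01%) at least 2-fold lower. The median log2 ratio was 0.21 over the 2762 genes with UMIs in both sums. The other 157 genes had no UMI in water members, where 0 UMIs allow up to 80.1 CPM, and were all counted as higher. Water members held 37449 UMIs in sum and DFMO members 445592. A gene near the minimum of 30 UMIs can therefore pass 2-fold on a few water UMIs, by counting error alone. No treatment difference is read from these counts of genes, with or without the fibroblast and tumour marker cells. Higher genes were 73.9% of these calls, and 86.5% after TMM scaling, which moved the median to 0.53. Of 13 glycolysis genes, 10 were at least 2-fold lower in DFMO members (median -1.90). Without the 3 water cells and the 1 DFMO cell, 1 of 10 was at least 2-fold lower (median -0.21). Of 25 naive genes, 11 were at least 2-fold higher in DFMO members and none lower with all members (median 0.78), and 4 were higher and 2 lower without those cells (median 0.19). T cell receptor signalling genes had a median of 1.06 with all members and 0.22 without those cells.

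Without the fibroblast and tumour marker cells, 605 of 2620 genes (23.1%) were at least 2-fold higher in DFMO members and 249 (9.5%) at least 2-fold lower. Of the 605, 408 had no UMI in water members and were counted as higher for that reason. There 0 UMIs allow up to 195.9 CPM, so a 2-fold difference is not shown for each of them. Of 34 interferon response genes, 10 were then at least 2-fold lower in DFMO members and 2 higher (median -0.56), against 8 lower and 7 higher with all members (median 0.27). Isg15, an interferon-induced ubiquitin-like protein, had a similar ratio with and without those cells. Its level was 366 CPM (163 UMIs) in DFMO members and 1709 CPM (64 UMIs) in water members (log2 ratio -2.22, -2.65 to -1.78), and 386 CPM in DFMO and 1894 CPM (29 UMIs) in water members without those cells (-2.29, -2.87 to -1.67). Ly6a, the Sca-1 surface protein gene that interferon induces, was 608 CPM in DFMO members and 1469 CPM in water members (-1.27, -1.69 to -0.83), and 645 CPM in DFMO and 1763 CPM (27 UMIs) in water members without them (-1.45, -2.02 to -0.82). When members were chosen anew on counts thinned to 1000 UMIs (115 DFMO and 9 water cells), all UMIs of the chosen cells were summed. The ratio of Ly6a was then 0.0708, so its direction turned, and that of Isg15 was -1.15.

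Genes of early activation had a negative median once those cells were left out. Over 22 such genes, 7 were at least 2-fold lower and 4 higher (median -0.70), against 2 lower and 3 higher of 23 with all members (median 0.04). Cd69, an activation antigen that also retains T cells in tissue, was 563 CPM in DFMO members and 828 CPM in water members, and 599 CPM in DFMO and 1959 CPM (30 UMIs) in water members without those cells (log2 ratio -1.71, -2.26 to -1.11). Fos, an immediate early transcription factor, was 2410 CPM in DFMO and 3044 CPM in water members with all counted (log2 ratio -0.34, -0.62 to -0.05). It was 2567 CPM in DFMO and 5486 CPM (84 UMIs) in water members without those cells (log2 ratio -1.10, -1.42 to -0.76). Id2, a regulator of effector differentiation, was 204 CPM in DFMO and 561 CPM in water members with all counted (-1.46, -2.15 to -0.70), and 216 CPM in DFMO and 980 CPM (15 UMIs) in water members without them (-2.18, -2.98 to -1.29). These water levels come from 11 cells of 1 pool. For Id2, 1 cell held 47.6% of the 21 UMIs of all water members, and that cell was among the 11. The Id2 level of water members and its ratio therefore rest largely on 1 cell.

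Variation of single genes was measured among the 199 DFMO members. Dispersion is here the variance over cells of the UMIs of a gene divided by what counting at each cell's depth gives. Its median over 3882 genes with at least 0.1 UMIs per cell was 1.03, with 165 genes over 2. With few UMIs per cell dispersion stays near 1 even where levels differ, so this median does not show that the members are alike. Several of the most variable genes came from single cells. One cell held 1769 of the 1774 UMIs of Hbb-bs, a red cell globin, and one cell of 8109 UMIs held all 178 UMIs of Gzmc, granzyme C. One cell held 212 of the 242 UMIs of Ccl5, a chemokine of memory and effector T cells. With receptor segments set aside, and where no cell held over 20% of the UMIs, the spread was largest for the ribosomal repeat transcript Gm42418 (dispersion 23.7). AY036118 (7.97), Eef1a1 (6.75) and Tmsb4x (6.65) came after it. Then came Fos (6.25, detected in 75.4% of cells), Junb (5.99, in 83.9%) and the interferon-induced Ifi27l2a (5.88, in 75.4%). Gm42418, Eef1a1 and Tmsb4x were also among the 30 genes of highest CPM in DFMO members. The proliferation genes Mki67 and Top2a were detected in 9 DFMO members (4.52%) and 1 water member.

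The 5′ libraries also counted T cell receptor variable segments. A beta chain segment (Trbv) was detected in 196 of 199 DFMO members (98.5%) and in 0.398% of B cells, and the members used 21 of the 25 segments in the matrix, with 116 members showing a single one. Trbv13-2 was found in 48 members (24.5%, 18.6 to 31.1% of those with a segment), against 22.5% (18.2 to 27.3%) of naive-like CD8 T cells. An alpha chain segment (Trav) was detected in 160 members (80.4%), over 60 of 72 segments, and the most used, Trav3-3, was in 8.75% of them.

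Both chains were seen in 158 DFMO members, and their leading segments formed 142 different pairs, the most used in 3 cells. Water members with both chains numbered 8 and formed 8 pairs. In DFMO naive-like CD8 T cells 262 cells formed 225 pairs and in DFMO effector-like CD4 T cells 47 cells formed 44. No pair therefore took a large part of the DFMO members. A segment pair is not a clonotype, because the junction sequences are not in the counts.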

How the data were processed

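Single-cell suspensions of pooled MC38 tumours were profiled with Chromium 5′ libraries, 1 per treatment. The deposited matrix held raw UMI counts per gene and cell, with no normalization, and the deposited cell table gave each cell's group and total UMI count. In that table the water group is called Control. The submitters' processing notes name Cell Ranger 3.02, Scanpy 1.4.4 and build mm10, without saying how cells or genes were filtered. The gene table's total counts, deposited by the authors, cover 13496 cells, more than the 10720 in the matrix, and were used only as a check. The labels give the gavage as daily in one place and more often in another.

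From there cells were classed by UMI conditions in Python 3.11.15 (numpy 2.4.6, scipy 1.17.1, pandas 2.3.3), with no further cell filter. The members, gene lists and comparison classes were chosen with earlier results of these data known. UMIs were summed over each class and library and given as CPM of that sum, with exact Poisson intervals, and log2 ratios have exact conditional binomial intervals. Genes with at least 30 UMIs over both sums were compared, and a gene was counted when past 2-fold. With 1 library per group no test was run. Zero counts were set to 3 UMIs for a bound. Doublets were called with Scrublet in scanpy 1.11.5 (51 DFMO and 97 water cells, 1 member among them) and kept. TMM factors came from edgeR 4.0.16 in R 4.3.3 as an alternative scaling, with no edgeR test. Genes were named by size of ratio, 10 at each end among those with at least 100 UMIs (50 between treatments) and 50 CPM, along with members of the lists by level or ratio. Other genes, such as Ctsw, Cd5 and Cd40lg, were chosen after their values were seen. Ly6c1 and Ly6c2 promoters came from RefSeq and were aligned with biopython 1.88. The calculations were tested on simulated data. Leaving out cells with fibroblast or tumour markers or shared barcodes was chosen after seeing the data. Some genes of the lists are not reported here by name.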

Additional observations from a re-analysis of the deposited data

How the results depend on the processing

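No paired analysis was possible because DFMO and water had a single library apiece, so no replicate could be left out either. Of 36 alternative values of the shares, 31 moved by less than their interval. Thinning to 1000 UMIs gave 2.63% of all cells and 6.85% of T cells in the DFMO library. Requiring 2 UMIs of the naive genes gave 9.71% of T cells and 63.8% of conventional CD4 T cells there, and leaving out cells with fibroblast or tumour markers gave 5.19% of all DFMO cells. Of 72 counts of genes past 2-fold, 54 stayed within 1.5 times. For gene counts and ratios in this section, thinning only chose the cells, and all UMIs of the chosen cells were summed. For DFMO against water members the others were 293 higher and 110 lower after thinning, 465 higher without the 5% deepest cells, 152 lower with TMM, 1976 higher and 795 lower at 10 UMIs, and 150 higher and 65 lower at 100 UMIs. For naive-like against effector-like CD4 T cells they were 154 lower after thinning, 933 higher and 695 lower at 10 UMIs, and 61 higher and 71 lower at 100 UMIs. For CD4 against CD8 naive-like T cells they were 337 lower without the 5% deepest cells (higher genes were then 32.9% of calls), 552 higher and 635 lower at 10 UMIs, and 28 higher and 44 lower at 100 UMIs. The UMI minimum sets how many genes are counted, and the cause of the other shifts was not tested. Of 240 list medians 177 stayed within the limit set, and of 343 values of single genes 302 did, 37 moved and 4 reversed. The reversed ones were log2 ratios of DFMO to water members: after thinning Bst2 was 1.88, Dapl1 -0.249 and Ly6a 0.0708, and without cells with fibroblast or tumour markers Dapl1 was -0.0955. With 14 water members, depth limits every ratio to water. There 0 UMIs allow up to 80.1 CPM, and up to 195.9 CPM in the 11 without fibroblast or tumour markers.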
